A study of Mus musculus with 4 samples.

Results

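The mesothelial and epicardial genes described here are Msln, Muc16, Upk3b, Upk1b, Lrrn4, Gpm6a, Bnc1, Wt1, Tbx18 and Aldh1a2, a set fixed by name and read at every probe set annotated to them alone. These 10 genes have 16 of the 45037 probe sets on the array, and 18193 genes were measured in all. Expression was measured on Affymetrix Mouse 430 2.0 arrays in Sca-1 cells, progenitor cells of the adult heart that were sorted magnetically on the surface antigen Sca-1 and taken without culture. Cyc cells came from double-transgenic mice that overexpress Cyclin T1 and Gαq from the αMHC promoter and have heart failure, and Wt cells from their wildtype littermates. All mice were FVB and 6 weeks old. Each genotype has 2 arrays, 1 from each of 2 independent experiments, and each array holds RNA pooled from the cells of 2 to 3 hearts. The αMHC promoter is active in cardiomyocytes, so the transgenes are not meant to be on in the sorted cells, and single mice cannot be told apart within a pool.

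The epicardium is the mesothelial sheet that covers the heart, and the same kind of epithelium lines the pericardial, pleural and peritoneal cavities. Mesothelial cells carry surface glycoproteins, keratins and tight junction proteins. The epicardium of the embryo expresses Wt1 and Tbx18, makes retinoic acid through Aldh1a2, and gives rise to fibroblasts and mural cells of the heart by epithelial-mesenchymal transition. In the adult heart it is a thin and mostly quiescent layer, and parts of its embryonic program return after injury.

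In 8 of the 10 genes the Cyc pool was at least 2-fold below the Wt pool in experiment 1 and at least 2-fold above it in experiment 2, on a log2 scale with 16 added to the intensities. Among all 18193 genes, each at its brightest probe set, 0.335% had this pattern. The 10 genes were chosen with earlier results of these data known, so the 2 values are not an independent comparison. The exceptions to the pattern were Wt1 and Tbx18. Wt1 was close to level in the 4 pools. The differences of Tbx18 had the same signs but stayed under 2-fold in experiment 1. None of the 10 genes passed the thresholds for a difference between Cyc and Wt cells over both experiments. Each experiment has 1 array per genotype, so the differences within an experiment are given without a test. An intensity under 50 was taken as near background. Where the dimmer pool is under 50, the fold is a lower bound, the brighter intensity over 50. In pools of cells, fewer cells of a type and less RNA per cell cannot be told apart.

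Promoter windows, the 250 bases before the gene start in RefSeq GRCm38.p6, were found for 7 of the genes. Wt1, Msln and Upk1b are named only. Of these windows, 3 are shown because their genes differ in how the pools were ordered. Upk3b had the widest difference between the experiments, Lrrn4 had the same order of its leading pools as Upk3b, and Aldh1a2 had another. They are written 5′ to 3′ in the direction of the gene. Capitals mark GGAATG, the site of TEAD factors, and AGGTCA, the core site of nuclear receptors, on either strand.
Upk3b, chr5:136038246-136038495, + strand: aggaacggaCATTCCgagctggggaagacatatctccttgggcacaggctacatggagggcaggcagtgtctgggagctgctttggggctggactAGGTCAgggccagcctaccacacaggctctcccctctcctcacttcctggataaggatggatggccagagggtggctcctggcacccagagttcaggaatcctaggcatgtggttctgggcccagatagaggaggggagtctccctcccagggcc
Lrrn4, chr2:132880863-132881112, - strand: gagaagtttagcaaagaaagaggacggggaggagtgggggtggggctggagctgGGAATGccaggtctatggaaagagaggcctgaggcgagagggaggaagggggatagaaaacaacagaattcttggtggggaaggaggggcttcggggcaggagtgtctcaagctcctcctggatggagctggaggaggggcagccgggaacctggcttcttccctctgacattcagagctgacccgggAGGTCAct
Aldh1a2, chr9:71215539-71215788, + strand: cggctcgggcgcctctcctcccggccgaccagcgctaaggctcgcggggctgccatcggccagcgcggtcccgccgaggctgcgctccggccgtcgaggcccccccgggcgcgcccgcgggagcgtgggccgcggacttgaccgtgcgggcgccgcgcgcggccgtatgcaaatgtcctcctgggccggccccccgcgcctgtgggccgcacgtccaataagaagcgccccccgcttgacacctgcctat
The windows of Upk3b and Lrrn4 each hold both motifs and that of Aldh1a2 neither. Bnc1 and Muc16 had the same leading pools as Upk3b and Lrrn4, and their windows hold neither motif. Gpm6a also had these leading pools, and no window of it holds AGGTCA. The motifs thus did not follow the order of the pools. GGAATG was found in 3 of the 8 windows of these genes (Gpm6a has 2 windows) and in 12.6% of all 32851 windows, AGGTCA in 2 and in 14.0%. TATAAA, the TATA box, was in 1 window, of Gpm6a, and in 12.4% of all. GCGGGGGCG, a GC-rich site of Wt1 and Egr1, and AGGTGTGA, a T-box site, were in none of the 8 windows and in 2.57% and 1.12% of all. No searched motif overlaps another in the windows shown. The share of G and C was 77.6% for Aldh1a2, 60.8% for Upk3b and 59.2% for Lrrn4, with a median of 52.4% over all windows. These matches describe the letters of the windows alone.

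Msln encodes mesothelin, a glycoprotein anchored in the mesothelial cell surface. Its intensity at probe set 1460238_at was 14.1 in the Cyc and 76.5 in the Wt pool of experiment 1, and 209.3 in the Cyc and 25.8 in the Wt pool of experiment 2. The Wt pool of experiment 1 and the Cyc pool of experiment 2 were above 50 and the other pools below it. Msln was thus at least 1.53-fold lower in Cyc cells in experiment 1 and at least 4.19-fold higher in experiment 2. Muc16 encodes a large membrane mucin that binds mesothelin. At 1432358_at it read 2.8 and 41.2 in the Cyc and Wt pools of experiment 1, and 108.9 and 9.997 in those of experiment 2. Only the Cyc pool of experiment 2 was above 50, at least 2.18-fold above the Wt pool, and both pools of experiment 1 were near background.

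Upk3b and Upk1b encode uroplakins, membrane proteins first known from the bladder lining, and Upk3b is also a marker of mesothelium. The intensity of Upk3b at 1454881_s_at was 35.2 in Cyc and 368.9 in Wt cells in experiment 1, and 702.5 in Cyc and 20.7 in Wt cells in experiment 2. It was at least 7.38-fold lower in Cyc cells in experiment 1 and at least 14.1-fold higher in experiment 2, the widest pair of differences among the 10 genes. For Upk1b at 1439760_x_at the intensities were 17.0 in Cyc and 154.1 in Wt cells in experiment 1, and 317.1 in Cyc and 9.6 in Wt cells in experiment 2. Upk1b was at least 3.08-fold lower and then at least 6.34-fold higher. For both uroplakins the Cyc pool of experiment 2 was highest and the Wt pool of experiment 2 lowest, and the Wt pool of experiment 1 lay between the Cyc pools, so the groups overlapped.

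Lrrn4 encodes a membrane protein with leucine-rich repeats, and Gpm6a a membrane glycoprotein best known from neurons. Lrrn4 at 1435648_at read 10.7 in Cyc and 51.8 in Wt cells in experiment 1, and 150.7 in Cyc and 12.1 in Wt cells in experiment 2. Its Wt pool of experiment 1 was barely above 50, so the bound on the fold there was 1.04, against at least 3.01-fold higher in Cyc cells in experiment 2. Gpm6a at 1456741_s_at had 36.7 in Cyc and 207.5 in Wt cells in experiment 1, and 427.7 in Cyc and 41.1 in Wt cells in experiment 2. This is at least 4.15-fold lower in Cyc cells and then at least 8.55-fold higher, again with overlapping groups.

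Bnc1, Wt1 and Tbx18 encode transcription factors. Bnc1, basonuclin 1, read 3.7 in Cyc and 38.2 in Wt cells in experiment 1, and 108.1 in Cyc and 3.8 in Wt cells in experiment 2, at 1424890_at. As for Muc16, the Cyc pool of experiment 2 alone was above 50, at least 2.16-fold above its Wt pool. Wt1 is the zinc finger factor by which the epicardium is often traced. Its single probe set, 1425995_s_at, had 478.2 in Cyc and 440.0 in Wt cells in experiment 1, and 596.4 in Cyc and 597.4 in Wt cells in experiment 2. The mean was 537 ± 83.6 in Cyc and 519 ± 111 in Wt cells (SD, n = 2 pools each), and the pools of an experiment were closer to each other than those of a genotype. Tbx18, a T-box factor of the epicardium and of mural cells, had 69.7 in Cyc and 87.7 in Wt cells in experiment 1, and 208.5 in Cyc and 83.9 in Wt cells in experiment 2, at 1429974_at. All 4 pools were above 50, and Tbx18 was 1.26-fold lower in Cyc cells in experiment 1 and 2.48-fold higher in experiment 2.

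Aldh1a2 encodes the retinaldehyde dehydrogenase that makes retinoic acid in the epicardium. Its intensity at 1422789_at was 66.6 in Cyc and 332.5 in Wt cells in experiment 1, and 159.1 in Cyc and 50.6 in Wt cells in experiment 2. With all pools above 50, if barely in the Wt pool of experiment 2, it was 4.99-fold lower in Cyc cells in experiment 1 and 3.14-fold higher in experiment 2. Aldh1a2 shared the opposite directions but not the order of the pools. The Cyc pool of experiment 2 had 0.478 times the intensity of the Wt pool of experiment 1. In the other 7 genes with opposite differences of at least 2-fold this ratio lay between 1.90 and 2.91.

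**Figure D1:**
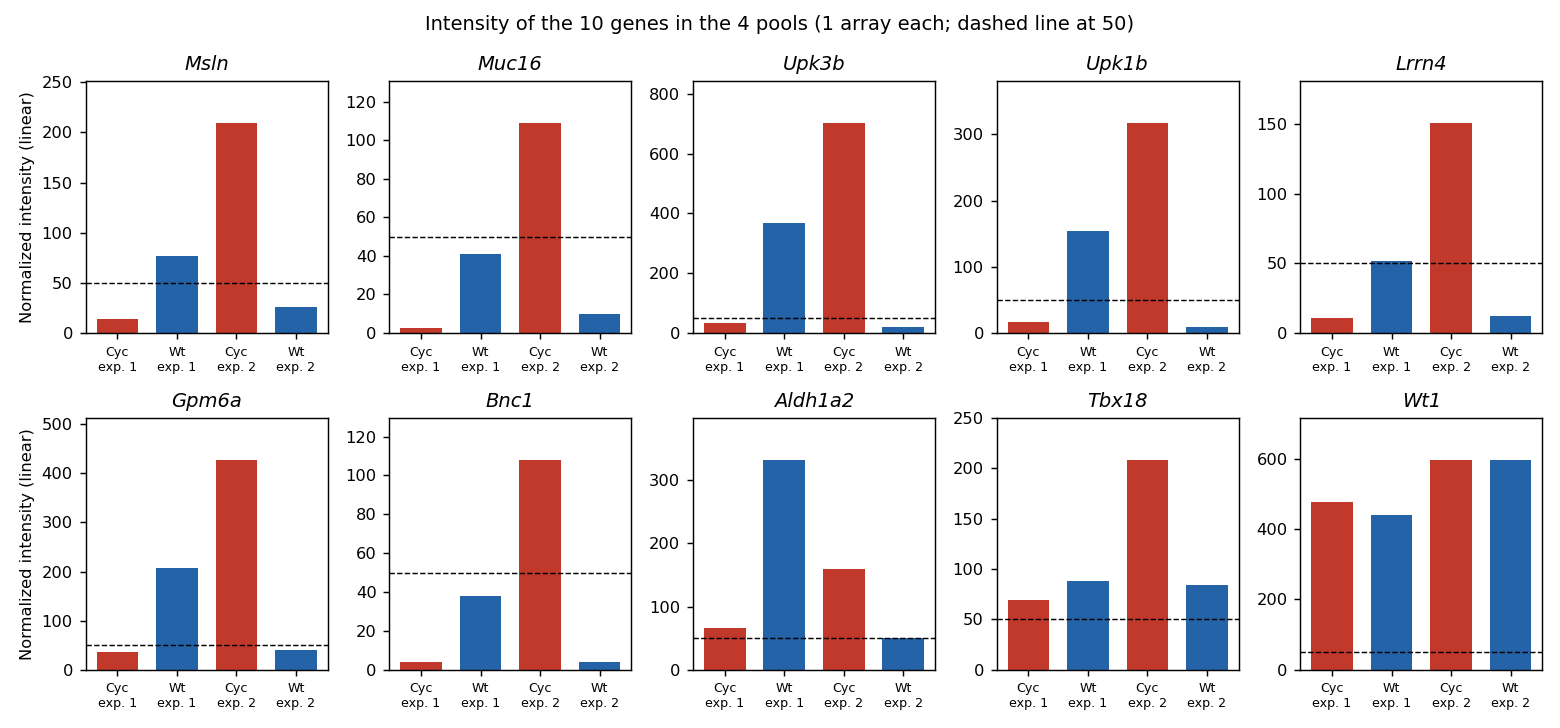
Normalized intensity (linear) of each of the 10 genes at its brightest probe set, with 1 bar per pool (1 array, red for Cyc and blue for Wt, experiments 1 and 2) and a dashed line at 50. In 7 panels the Cyc pool of experiment 2 is highest and the Wt pool of experiment 1 second, with the other pools under 50; Aldh1a2 is highest in the Wt pool of experiment 1 and Wt1 is near level.

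Counted by pool, 3 of the 10 genes were at 50 or more in the Cyc pool of experiment 1, 8 in the Wt pool of experiment 1, 10 in the Cyc pool and 3 in the Wt pool of experiment 2. Wt1, Tbx18 and Aldh1a2 were the 3 genes above 50 in all pools. Over all genes the share at 50 or more was 54.5% and 54.8% in the Cyc and Wt pools of experiment 1, and 58.5% and 55.1% in those of experiment 2. The median intensity of the tested probe sets was 197.6, 219.4, 280.5 and 260.7 in the same order. At the thresholds of 2-fold within an experiment, 1.47% of all genes were lower in Cyc cells in experiment 1 and 4.66% higher in experiment 2. The median difference of the 10 genes was -1.61 (log2) in experiment 1 and 2.50 in experiment 2. Over the 8 of them that were bright enough to be tested it was -1.85 and 2.50, and over all 20680 tested probe sets -0.10 and 0.06. Of these 8 genes, 5 passed the filter only through the Wt pool of experiment 1 and the Cyc pool of experiment 2. The count of 8 genes with opposite differences of at least 2-fold depends on how low intensities are treated. With values under 50 set to 50 and no added constant it was 4, namely Upk3b, Upk1b, Gpm6a and Aldh1a2. The share of all genes with the pattern at that setting was not counted.

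The genes with several probe sets could be read more than once on the same RNA. The other Upk3b probe set, 1434237_at, had 9.8 and 201.6 in the Cyc and Wt pools of experiment 1, and 463.0 and -16.7 in those of experiment 2. That is at least 4.03-fold lower and at least 9.26-fold higher in Cyc cells, as at the first probe set in direction. The remaining Upk1b probe sets, 1435831_at, 1455464_x_at and 1457065_at, read between 6.7 and 13.8 in the Cyc pool and between 64.0 and 110.3 in the Wt pool of experiment 1. In experiment 2 they read between 88.6 and 201.7 in the Cyc pool and between 0.6 and 11.9 in the Wt pool. All 4 Upk1b probe sets thus had the same order of their leading pools. The other Gpm6a probe set, 1426442_at, had 25.7 and 90.5 in experiment 1 and 226.6 and 24.1 in experiment 2. The other Tbx18 probe set, 1449871_at, was above 50 in the Cyc pool of experiment 2 alone, at 68.7, with 18.0, 37.6 and 37.4 in the Cyc and Wt pools of experiment 1 and the Wt pool of experiment 2. Of the 16 probe sets, 13 were at least 2-fold lower in Cyc cells in experiment 1 and higher in experiment 2. Among the 13 that were bright enough to be tested it was 11, and among all tested probe sets 0.266%. All of these 11 but that of Aldh1a2 reached 50 only in the Wt pool of experiment 1 and the Cyc pool of experiment 2. The filter thus kept them through the pools that are high in the pattern. Names ending in _s_at can match transcripts of several genes and those in _x_at share some probes with other sequences. For Upk3b, Upk1b and Gpm6a a probe set with a plain name gave the same directions. Wt1 was read at 1425995_s_at alone, so its level values could not be compared with those of a plain-named probe set.

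**Figure D2:**
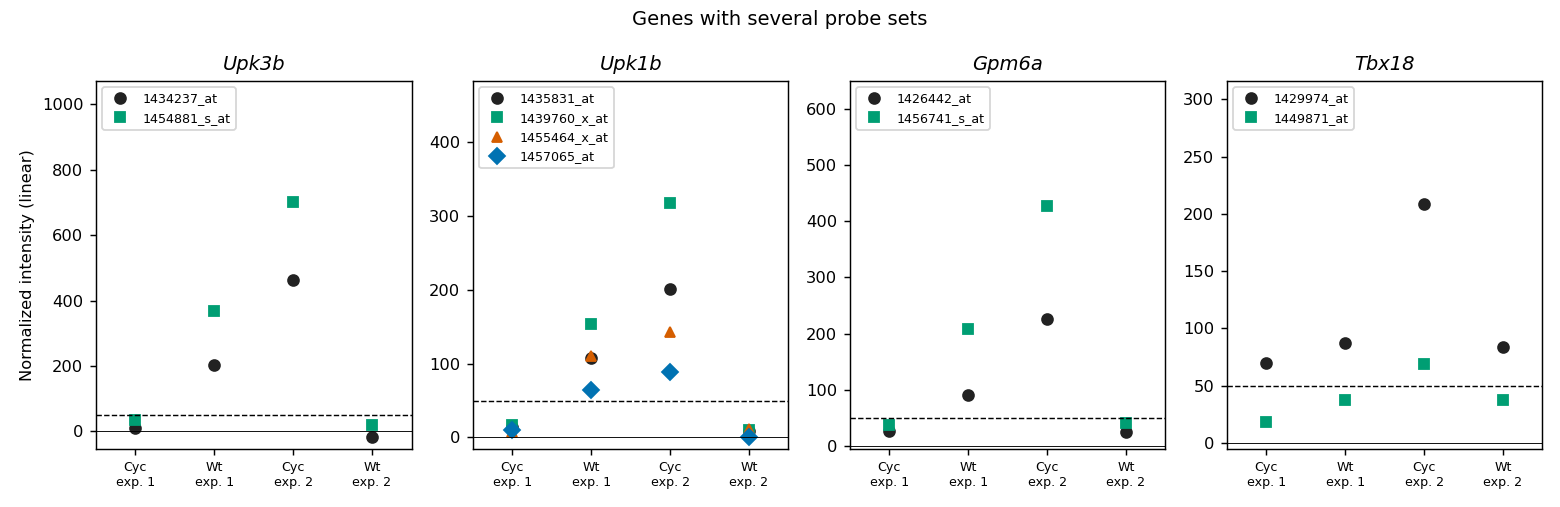
Normalized intensity (linear) of every probe set of the 4 genes that have several, by pool, with 1 symbol per probe set and a dashed line at 50. For Upk3b, Upk1b and Gpm6a all probe sets are above 50 in the Wt pool of experiment 1 and the Cyc pool of experiment 2 alone.

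To ask whether the genes differed between Cyc and Wt cells over both experiments, limma was fitted to the 20680 probe sets that reached 50 on at least 2 of the arrays. Of the 10 genes, 8 were tested, as were 13 of their 16 probe sets. Bnc1 and Muc16 did not reach 50 on 2 arrays. With 2-fold and an unadjusted p under 0.05 as thresholds, none was higher and none lower in Cyc cells, beside 0.735% of all tested probe sets called higher and 0.116% lower. At an unadjusted p under 0.05 alone the count was also 0, and over all probe sets it was 412. Every adjusted p was 1 (limma, Benjamini-Hochberg). With the experiment as a block, 0 of the 13 probe sets were called and 0 had an unadjusted p under 0.05, beside 1.15% of all tested probe sets called.

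The fitted log2 fold changes had wide intervals. That of Upk3b was 0.69 with a 95% confidence interval from -3.72 to 5.10, that of Upk1b 0.67 from -3.08 to 4.41, and that of Lrrn4 0.61 from -1.97 to 3.19. For Msln it was 0.41 from -2.33 to 3.14, and for Gpm6a 0.44 from -2.75 to 3.62. These intervals leave changes of several fold in either direction within reach. Aldh1a2 was the only gene with a fitted value below 0, at -0.34 with an interval from -2.66 to 1.98. Tbx18 had 0.45 from -0.88 to 1.77. Wt1 had the narrowest interval, 0.06 from -0.68 to 0.79. The standard errors of the 8 genes ran from 0.28 for Wt1 to 1.68 for Upk3b, and the median over all tested probe sets was 0.29. No gene had both Cyc pools above both Wt pools or below them, which held for 15.1% and 8.23% of all tested probe sets. The median fold change of the 8 genes was 0.44 (log2), and -0.02 over all tested probe sets.

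The fitted values turned with single pools. Without the Cyc pool of experiment 1 the median was 1.89 and 5 of the 8 genes passed the thresholds as higher in Cyc cells, namely Msln, Upk1b, Lrrn4, Tbx18 and Gpm6a (limma). Over all probe sets 581 were then called higher. Without the Cyc pool of experiment 2 the median was -0.94 and no gene passed. Without the Wt pool of experiment 1 it was 1.11, and without that of experiment 2 it was -0.36, with no gene called in either fit. In these fits the single array of a genotype is assumed to vary like the other group.

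**Figure D3:**
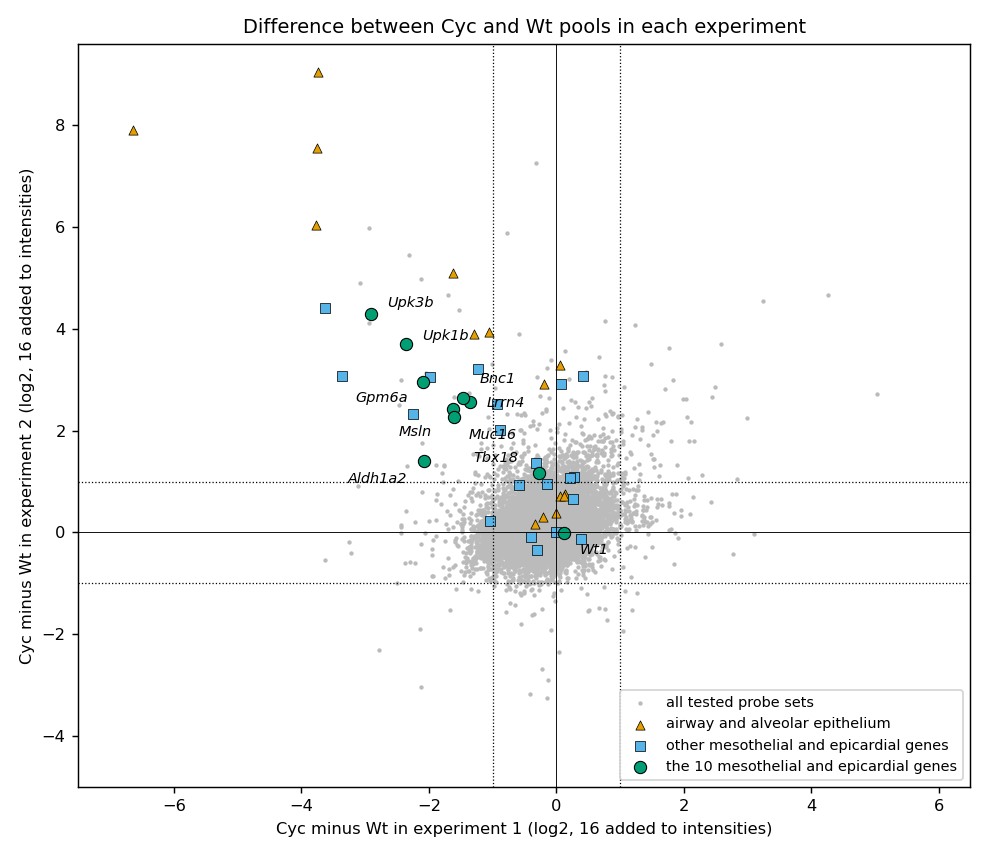
Difference between the Cyc and Wt pools in experiment 1 (horizontal) and experiment 2 (vertical), both log2 with 16 added to the intensities, for the 10 genes (green circles), other mesothelial and epicardial genes (blue squares), airway and alveolar genes (orange triangles) and all tested probe sets (grey); dotted lines mark 2-fold. Of the 10 genes, 8 lie beyond 2-fold in the upper left, and Wt1 and Tbx18 do not.

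The pattern was looked for in 20 other genes of mesothelium and epicardium. None of the 13 that were tested passed the thresholds, and their median log2 fold change was 0.53. Tcf21, a factor of epicardium and cardiac fibroblasts, read 1528.8 in Cyc and 1321.2 in Wt cells in experiment 1, and 1550.4 in Cyc and 726.5 in Wt cells in experiment 2. Ezr, which encodes the membrane linker ezrin, read 395.6 and 602.2 in experiment 1 and 856.5 and 438.7 in experiment 2. Tbx20, a T-box factor of the heart, read 243.2 and 177.0 in experiment 1 and 1366.6 and 147.2 in experiment 2. These 3 brightest genes of the list were above 50 in every pool, and none had opposite differences of 2-fold.

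Of the 20 genes, 5 were at least 2-fold lower in Cyc cells in experiment 1 and higher in experiment 2, and they are named after their values were seen. Nkain4, which encodes a membrane protein that interacts with the sodium pump, read -3.3 in Cyc and 181.5 in Wt cells in experiment 1, and 328.2 in Cyc and 0.3 in Wt cells in experiment 2. Dmkn, dermokine, read -3.4 and 148.7 in experiment 1 and 190.2 and 8.5 in experiment 2. Rspo1, an enhancer of Wnt signaling, read 1.9 and 68.9, then 168.7 and 20.6. All of these were near background in the Cyc pool of experiment 1 and the Wt pool of experiment 2. The keratins Krt19 and Krt8, filament proteins of simple epithelia, had the same leading pools. Krt19 read 56.1 and 153.7, then 285.5 and 16.4, and Krt8 6.3 and 71.6, then 272.2 and 18.5. Among the genes without the pattern, Cldn15 and Pdpn were above 50 in every pool and are also named after their values were seen. Cldn15 read 231.3 and 187.2, then 288.2 and 126.6, higher in Cyc cells in both experiments. Pdpn read 303.3 and 381.0, then 358.5 and 129.0. Calb2, Scx, Gata5, Pkhd1l1 and Fgf9 were under 50 in all pools.

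Of the retinoic acid pathway, 17 genes beside Aldh1a2 were measured and 11 tested. Cyp26b1, which breaks retinoic acid down, was the only gene called, with 240.6 in Cyc and 690.6 in Wt cells in experiment 1, and 460.6 in Cyc and 698.9 in Wt cells in experiment 2. It was lower in the Cyc pool of both experiments, with a log2 fold change of -1.02 ± 0.37 (SE; limma, unadjusted p = 0.0410, adjusted p = 1). None of the 17 genes had opposite differences of at least 2-fold in both experiments, as Aldh1a2 had. Aldh1a1, a related dehydrogenase, read 808.2 and 699.6 in the Cyc and Wt pools of experiment 1, and 2752.1 and 326.9 in those of experiment 2. Rarres2, which encodes the chemoattractant chemerin, read 905.8 and 1552.7 in experiment 1 and 1678.9 and 658.9 in experiment 2. It had the same order of pools as Upk3b, at 1.71-fold lower in Cyc cells and then 2.55-fold higher. Dhrs3, which turns retinal back into retinol, read 868.1 and 1183.3, then 1051.8 and 1474.3. The median log2 fold change of the 11 tested genes was -0.16.

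Of 10 genes of epithelial-mesenchymal transition 6 were tested, none was called, and their median log2 fold change was 0.04. Vim, the filament protein of mesenchymal cells, read 11630.2 in Cyc and 9743.7 in Wt cells in experiment 1, and 12112.0 in Cyc and 9618.7 in Wt cells in experiment 2. Podxl, which encodes the sialomucin podocalyxin, read 3888.4 and 5614.4, then 6566.4 and 6389.6. Zeb1, a repressor of epithelial genes, read 1237.7 and 1523.2, then 1993.6 and 2041.9. For all 3 the Cyc and Wt pools of an experiment were within 2-fold of each other. Of the 10 genes, 8 were highest in the Cyc pool of experiment 2, among them Snai1, which was under 50 in all pools. That pool also had the highest median intensity of the tested probe sets, 280.5. The share of all genes that were highest in it was not counted. Cdh1 and Cdh2, the E- and N-cadherin genes, were above 50 in that pool alone and are named after their values were seen. Cdh1 read 7.6 and 28.2, then 181.4 and 19.9, at least 3.63-fold higher in Cyc cells in experiment 2. Cdh2 read 43.9 and 24.3, then 123.1 and 29.1, at least 2.46-fold higher.

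Some genes of airway and alveolar epithelium, an epithelium that the heart lacks, moved with the same pools. Scgb1a1, the secretoglobin of club cells, read 118.5 in Cyc and 1783.7 in Wt cells in experiment 1, and 10194.7 in Cyc and 3.2 in Wt cells in experiment 2. Bpifa1, a secreted protein of upper airways, read 5.2 and 2111.7 in experiment 1 and 7270.7 and 14.5 in experiment 2. Scgb3a1, another airway secretoglobin, read 502.4 and 1066.9, then 5621.9 and 349.2. Of the 15 measured genes of this list, 7 were at least 2-fold lower in Cyc cells in experiment 1 and higher in experiment 2. The Cyc pool of experiment 2 was highest for 13 of the 15. That pool was also the brightest by the median of the tested probe sets, and the share over all genes was not counted. None of the 9 tested genes passed the thresholds. Foxj1, Sftpa1, Ager and Cldn18, which mark ciliated and alveolar cells, were under 50 in all pools. Other surfactant genes of alveolar cells were read, and are named after their values were seen. Sftpd had 54.0 and 51.3 in the Cyc and Wt pools of experiment 1, and 230.7 and 9.1 in those of experiment 2. Sftpc was above 50 in the Cyc pool of experiment 2 alone, at 164.5, and Sftpb read between 65.3 and 128.4 in the 4 pools. Epcam, also named after its values were seen, did not have opposite differences of 2-fold. It read 124.0 and 113.0 in the Cyc and Wt pools of experiment 1, and 124.8 and 69.8 in those of experiment 2. The summed intensity of the list was 984.5 in Cyc and 6525.6 in Wt cells in experiment 1, and 32009.6 in Cyc and 586.1 in Wt cells in experiment 2. The sum of the 10 mesothelial and epicardial genes was 734.8 and 1798.5, then 2988.3 and 854.9. Wt1, near level in the pools, made up most of the lowest sums. It read 478.2 in the Cyc pool of experiment 1 and 597.4 in the Wt pool of experiment 2. The Cyc pool of experiment 2 had 4.91 times the airway sum of the Wt pool of experiment 1 and 1.66 times the mesothelial sum. The part of airway RNA or cells in the values of the mesothelial genes was not tested.

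Markers of the other cell types that the sort could hold were set beside these sums. The 8 leukocyte genes summed to 651.7 and 635.7 in the Cyc and Wt pools of experiment 1, and to 1643.7 and 459.9 in those of experiment 2, with Cd52 called higher in Cyc cells. The 8 genes of smooth muscle and pericytes summed to 12625.7 and 10673.0, then 23927.4 and 15096.1, with Kcnj8 called higher. Both sums were highest in the Cyc pool of experiment 2. The sum in the Wt pool of experiment 1 was 1.38 times that in the Wt pool of experiment 2 for leukocyte genes and 0.707 times for those of smooth muscle and pericytes. The 8 fibroblast genes summed to 41743.5 and 42891.2, then 41685.4 and 26771.7, with Col1a1 called higher, and the 8 endothelial genes to between 33893.9 and 40419.6 with none called. The 8 cardiomyocyte genes summed to 2105.1 and 3680.9, then 1926.2 and 2372.1, with Myl2 and Mb called lower in Cyc cells. All of these calls had an adjusted p of 1 (limma). The part of these cell types in the values of the mesothelial genes was not tested. As a check of the labels, 1 of 7 probe sets of Gnaq, the gene of the Gαq transgene, was called higher in Cyc cells, with 723.6 and 492.3 in the Cyc pools and 22.7 and 4.1 in the Wt pools. The paper detected no difference at its other Gnaq probe sets and took that to hold for the whole transcript.

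**Figure D4:**
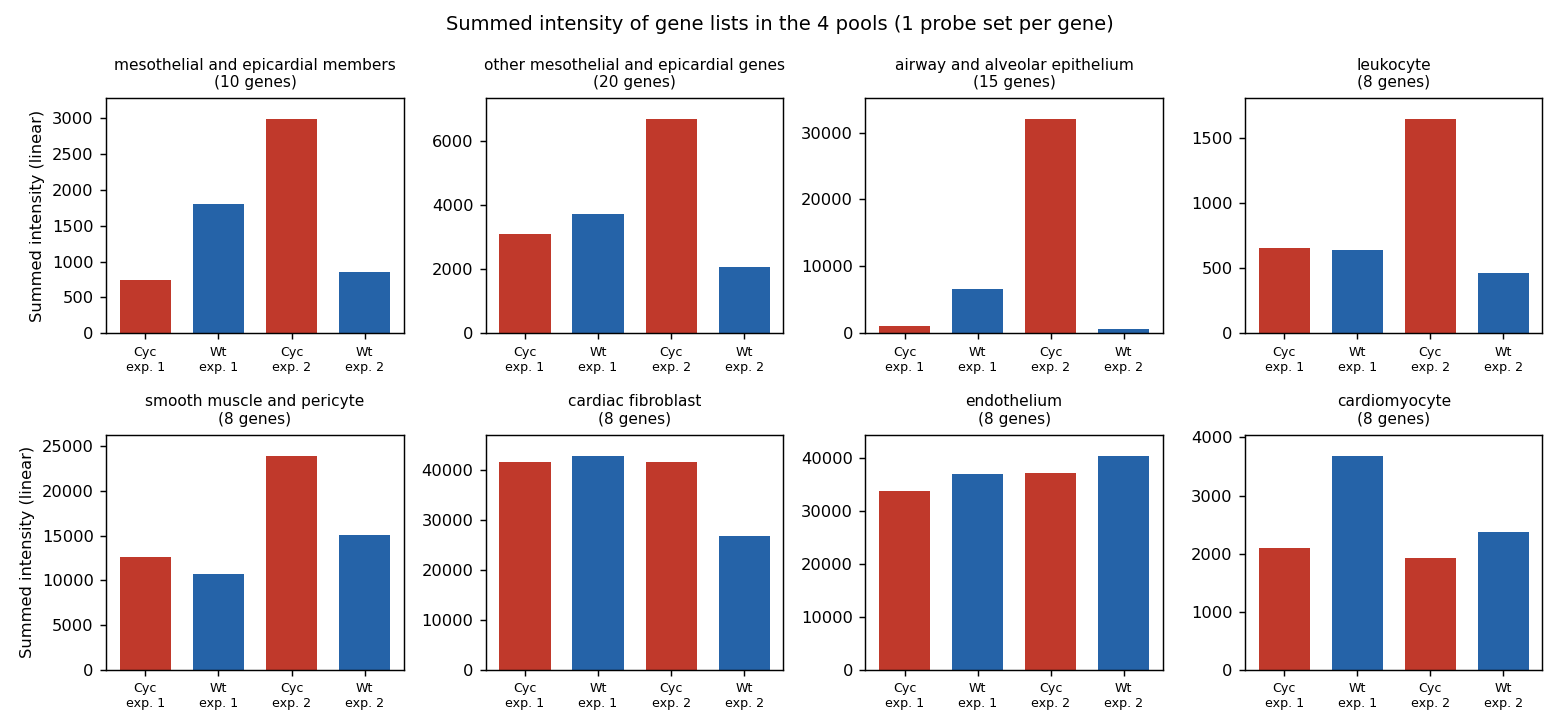
Summed intensity (linear, 1 probe set per gene, values below 0 taken as 0) of 8 gene lists in the 4 pools, red for Cyc and blue for Wt. The sums of the 10 mesothelial and epicardial genes, of the 20 other genes of these tissues and of airway and alveolar epithelium are highest in the Cyc pool of experiment 2 and second in the Wt pool of experiment 1; those of endothelium and cardiomyocytes are not.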

How the data were processed

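Total RNA of 4 pools, 2 Cyc and 2 Wt, was labelled from 250 ng each with the 3' IVT Express kit. The deposited values are normalized intensities on a linear scale that the authors made in Resolver 7.2. The background correction and the summary method are not given in the sources used here. Between 5784 and 7231 deposited intensities per array lie below 0. These were set to 0, 16 was added and log2 was taken, which draws the differences of dim probe sets towards 0. Probe sets that reached 50 on 2 arrays or more were kept, 20680 of 45037, control probe sets left out. The test was that of limma 3.58.1 under R 4.3.3 (two-sided, 2 residual and 2.68 prior degrees of freedom), with Benjamini-Hochberg adjustment. A call required 2-fold and an unadjusted p under 0.05. These cut-offs are those of the study's methods, but its p came from the Resolver error model and here it came from limma. No adjusted p was under 0.05, so calls fail correction for multiple tests. The number of arrays limits the precision. The procedure was tested on simulated data.

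Probe sets were named from the platform annotation, in which 34945 have 1 symbol, 932 several and 9160 none, and only those with 1 symbol were used. A gene was represented by its probe set with the highest mean intensity. The replicate number of the labels was read as the number of the experiment. The residuals of the arrays that share a number, taken from the group means, had a correlation of 0.447 over 20680 probe sets, with 2 pairs. The poly-A controls had medians of 258.8 and 231.9 on the arrays of experiment 1, and of -0.91 and 0.30 on those of experiment 2. The genes and lists were chosen with earlier results of these data known. All 10 genes were to be named, and of each other list its 3 brightest genes and those called, though the text leaves some of the brightest out. Lamp3 and the gene that encodes Sca-1 were not analysed here. Alternatives were other pseudocounts, filters and scalings, the experiment as a block, a trend in the prior, the mean of a gene's probe sets and leaving out each array. Python 3.11.15 with pandas 2.3.3 was used for descriptions and promoter motifs.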

Additional observations from a re-analysis of the deposited data

Results flagged for a closer look

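In 8 genes the Cyc pool was at least 2-fold below the Wt pool in experiment 1 and at least 2-fold above it in experiment 2, so the single samples of the experiments moved in opposite ways. The difference between the experiments, the log2 difference of Cyc minus Wt in experiment 2 less that in experiment 1, was 7.201 for Upk3b, 6.07 for Upk1b and 5.04 for Gpm6a. It was 4.11 for Bnc1, 4.05 for Msln, 3.91 for Lrrn4, 3.87 for Muc16 and 3.47 for Aldh1a2. For dim genes these values depend on the added 16. Both pools of experiment 1 were under 50 for Bnc1 and Muc16. For Msln and Lrrn4 the bounds on the fold in experiment 1 were 1.53 and 1.04. Tbx18 had the same directions with less than 2-fold in experiment 1, and its difference was 1.44. These differences were not tested, because 4 arrays leave no degrees of freedom for an interaction of genotype and experiment.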

How the results depend on the processing

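The count of 8 genes with opposite differences in the experiments was the same with a pseudocount of 1, with quantile normalization and with scaling to the same median. It was 4 with a pseudocount of 50 and 4 with intensities under 50 set to 50. All of these settings for this count were chosen after seeing the data. The limit of detection was also set at 100 in place of 50. Then 1 gene was above it in the Cyc pool and 5 in the Wt pool of experiment 1. In the Cyc and Wt pools of experiment 2 the counts were 10 and 1. The share of all genes at 100 or more was not counted.

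No gene was called under any alternative that keeps all arrays. With the experiment as a replicate block 0 genes were called, while the calls over all probe sets went from 152 to 191 higher and from 24 to 47 lower. A pseudocount of 1 gave 46 lower calls, one of 50 gave 93 higher calls, no filter 37 lower calls and scaling to the same median 36. Leaving out each array in turn gave 0 to 5 genes called higher and 0 called lower, and a median log2 fold change from -0.94 to 1.89. Over all probe sets this gave 117 to 581 calls higher and 29 to 1050 lower. The log2 fold changes changed sign in these fits and ran from -1.04 to 1.86 for Msln, -1.21 to 2.60 for Upk3b, -0.999 to 2.34 for Upk1b and -0.71 to 1.93 for Lrrn4. They ran from -1.10 to 1.97 for Gpm6a, -1.54 to 0.85 for Aldh1a2, -0.25 to 1.14 for Tbx18 and -0.16 to 0.27 for Wt1. The cause was not tested. Intensities under 50 lie near background and limit the folds to bounds.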
